A study of Oncorhynchus mykiss with 15 samples.

Results

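Fat cells of adult rainbow trout (Oncorhynchus mykiss) were compared between visceral fat (VAT), subcutaneous fat (SAT) and intramuscular fat (IMAT), and 43 genes that were high in visceral fat alone are described here. They were chosen by their measured levels in these same libraries, from 25695 genes tested in a table of 64494, and make up 0.167% of the genes tested. A member had a mean of at least 10 CPM in VAT, where CPM is counts scaled to a common library total. Its lowest VAT library lay over 1.5 times above the highest of all SAT and IMAT libraries, and its SAT and IMAT means lay within 2-fold of each other. The differences between VAT and the other depots are therefore properties of the choice and are given as descriptions. Counts of members that pass a test in these contrasts are set beside the share of all genes that do, and support nothing.

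Each depot was represented by 5 RNA sequencing libraries of mature adipocytes, released mechanically and with collagenase type II. The fish of all 3 groups were untreated adults kept at 15 °C and fasted for 24 h. No strain, sex or age is given, nor which fish gave which library, so the spread between libraries may hold technical as well as biological differences. Total counts ran from 5872244 to 9414223 in VAT, from 4203986 to 7243006 in SAT and from 2413951 to 4199494 in IMAT. The limit that a count of 0 allows, set at 3 counts per library, was 0.28 to 0.466 CPM for VAT, 0.448 to 0.569 CPM for SAT and 1.09 to 1.44 CPM for IMAT. It covers counting error only. Several libraries differed from the others of their depot. VAT replicate 5 did so in the levels of the members, as given further on. SAT replicate 5 had the largest share of counts in the members among the SAT libraries, 0.0951% against 0.0625% to 0.0717%. The most abundant member took 0.0367% there, against 0.0155% to 0.0184% in the other SAT libraries. The remaining members together took 0.0583%, against 0.0447% to 0.0562%. IMAT replicate 2 had a TMM scaling factor of 0.501, against 0.894 to 1.14 in the other IMAT libraries. VAT replicate 5 and SAT replicates 4 and 5 also had the most detected genes of their depots.

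Visceral fat lies around the gut and its appendages and is a main energy store of salmonids, from which fatty acids are released during fasting and maturation. Adipocytes store triglyceride in a large lipid droplet, release it by lipolysis and secrete hormones and signalling proteins. Fat beneath the skin and fat between muscle fibres are other stores of the same kind of cell, and depots of vertebrates are known to differ in the developmental genes they express. The table lists Ensembl gene identifiers only, and 0 of them could be paired with a name or sequence in the RefSeq gene table supplied. No member is therefore named by symbol or given a function, and no sequence is shown. Markers of adipocytes and of other cell types could not be looked up, so the labelled cell type and the purity of the preparations were not checked. In bulk samples, fewer cells of a type and less RNA per cell cannot be told apart.

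Of the genes tested, 12478 reached a mean of 10 CPM in VAT, and 120 of these also met the margin over the other depots. The limit on SAT against IMAT kept 43 of the 120 (35.8%). Among those left out, SAT was more than 2-fold above IMAT in 69, and IMAT was more than 2-fold above SAT in 8. The same rule turned to the other depots gave 236 genes high in IMAT alone and 3 high in SAT alone. The closest values on either side of the margin were 1.505 and 1.488, those around the minimum level were 10.09 and 9.03 CPM, and those around the limit were ratios of 1.997 and 2.003. Without any margin, the 5 VAT libraries lay above all 10 others in 361 genes, 1.4% of those tested, and by construction in all 43 members.

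The 43 members took 1.04% ± 0.285 of all counts in the VAT libraries (SD, n = 5 per depot), against 0.0729% ± 0.0128 for SAT and 0.0429% ± 0.0166 for IMAT. Most of the VAT share came from ENSOMYG00000061122, the member with the highest mean CPM, which held 61.6% of the members' pooled VAT counts. The other 42 members together took 0.404% ± 0.13 of the VAT counts (SD, n = 5 per depot), against 0.0518% ± 0.00555 for SAT and 0.0328% ± 0.00994 for IMAT. Mean VAT levels of the members ran from 10.1 to 5936 CPM with a median of 37.4 CPM. There were 17 members below 30 CPM, 15 from 30 to 100 CPM and 11 above 100 CPM. CPM is not corrected for gene length, so these ranks do not order the genes by transcript number.

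**Figure D1:**
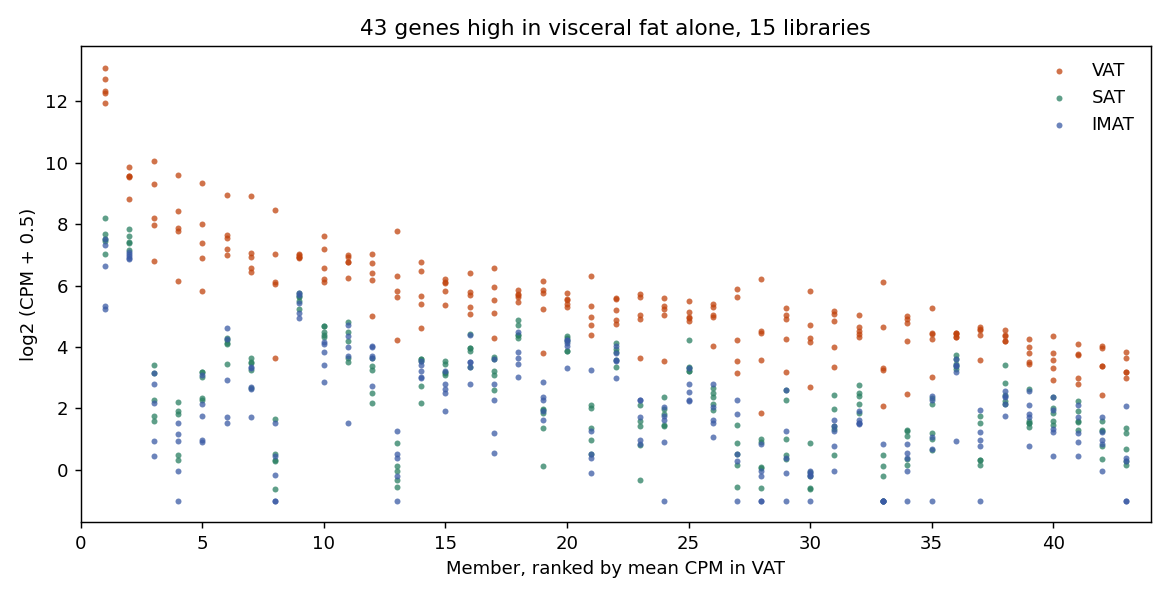
Levels of the 43 members on the log2 scale of CPM plus 0.5, with members ordered by mean VAT CPM on the horizontal axis and 1 point for each of the 15 libraries, coloured by depot. The VAT points lie above the SAT and IMAT points of every member, as the rule requires, and the distance between them differs widely between members.

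ENSOMYG00000061122 had 8798, 6779, 4968, 5201 and 3933 CPM in VAT replicates 1 to 5. It had 173.8, 182.2, 203.5, 128.9 and 292.7 CPM in SAT replicates 1 to 5, and 99.9, 36.9, 40.0, 182.0 and 160.6 CPM in IMAT replicates 1 to 5. Its level was thus high in each VAT library, with no overlap, and it was still plainly detected in every library of the other depots. Over the 5 libraries of a depot it averaged 5936 ± 1897 CPM in VAT (SD), while SAT averaged 196.2 ± 60.4 CPM and IMAT 103.9 ± 66.9 CPM. The VAT mean was 30.2 times the SAT mean and 57.1 times the IMAT mean. The 2 IMAT libraries with the lowest values, replicates 2 and 3, lay far below the other 3.

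ENSOMYG00000060495 had the widest margin, with its lowest VAT library 17.2 times above its highest SAT or IMAT library. Its VAT levels were 341.6, 776.2, 233.3, 219.1 and 70.2 CPM in replicates 1 to 5, so the libraries of the depot differed 11.1-fold among themselves. In SAT it had 0.761 to 4.08 CPM with a median of 3.03 CPM. In IMAT it had 0 to 2.40 CPM with a median of 1.44 CPM, at or near the floor. The fitted log2 fold change was 7.07 in VAT against SAT and 8.08 in VAT against IMAT. Within the 2-fold limit it was also the member with the lowest IMAT level relative to SAT, with a log2 fold change of -1.01 (SE 0.788).

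High in VAT alone did not mean absent elsewhere. All 43 members had counts in both SAT and IMAT, and 30 had counts in each of the 15 libraries. The limit on SAT against IMAT excludes a gene with counts in only SAT or only IMAT. Counts in both depots are therefore largely set by the rule. Averaged over the 10 SAT and IMAT libraries, 5 members lay below 1 CPM, 19 between 1 and 5 CPM, 8 between 5 and 10 CPM and 11 above 10 CPM. A library without counts occurred for 1 member in SAT and for 13 members in IMAT, where libraries were shallowest. The member with the fewest IMAT counts had 3 in the 5 IMAT libraries together and 886 in VAT. The pooled ratio was 80.8 (95% exact Poisson interval 27.6 to 393, counting error only). All 3 IMAT counts came from IMAT replicate 4. The VAT libraries of this member ran from 3.73 to 69.5 CPM, a spread that the interval leaves out.

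The size of the difference covered a wide span. The VAT mean exceeded both other means by over 2 times in 42 members, over 4 times in 33, over 8 times in 21, over 16 times in 12 and over 32 times in 8. The margin between the nearest libraries was below 2 in 18 members, from 2 to 3 in 13, from 3 to 5 in 5, from 5 to 10 in 4 and above 10 in 3. Over the members the median log2 fold change was 3.03 in VAT against SAT and 3.34 in VAT against IMAT. Over all genes tested the medians were 0.03 and 0.10. Those of the members were 3.22 and 3.39 without VAT replicate 5, 3.04 and 3.39 without IMAT replicate 2, 3.11 and 3.32 without SAT replicate 5, and 3.31 and 3.44 with SAT replicates 4 and 5 left out along with VAT replicate 5. These 2 comparisons share the VAT libraries and are not independent.

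In the quasi-likelihood test of edgeR, adjusted by Benjamini-Hochberg over all genes tested, 42 of 43 members were called higher in VAT than in SAT, where 2.37% of all genes tested were called higher. All 43 were called higher in VAT than in IMAT, where 8.12% of all genes tested were. Both counts follow from the rule and carry no further information. The exception in the first comparison was ENSOMYG00000017827, singled out after its values had been seen. It had 21.7, 21.1, 19.5, 19.5 and 21.4 CPM in VAT replicates 1 to 5, and 11.6, 9.27, 12.9, 9.85 and 10.4 CPM in SAT replicates 1 to 5. In IMAT it had 11.6, 1.44, 10.2, 10.01 and 8.68 CPM in replicates 1 to 5. The VAT libraries were nearly level and lay above all others, SAT and IMAT overlapped, and IMAT replicate 2 stood far below the other 4. VAT exceeded SAT by 0.93 on the log2 scale for this gene, the smallest such difference among the members, with an adjusted p of 0.076 in the edgeR test. The same test without IMAT replicate 2 gave 0.93 and an adjusted p of 0.0020. Fitted to VAT and SAT only, it gave 0.92 and 0.0028. These are 2 of the 3 alternatives, among 22, that changed the call, and they were picked after their values had been seen. The rule had used the same VAT and SAT values, so these p-values are descriptions and support nothing.

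**Figure D2:**
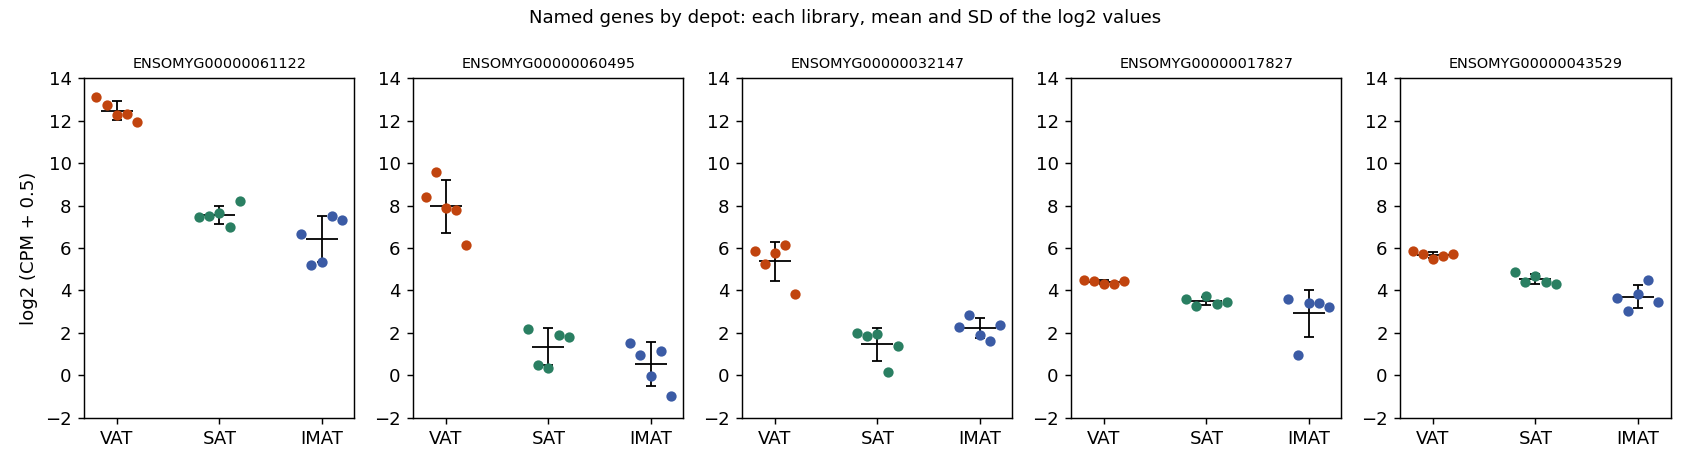
Levels of the 5 named genes on the log2 scale of CPM plus 0.5, with 1 point for each library and the mean and SD of the log2 values for each depot (n = 5). In each panel the VAT points lie above all others; ENSOMYG00000060495 spreads over several log2 units within VAT, while ENSOMYG00000017827 is nearly level there.

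Between the other depots the SAT mean exceeded the IMAT mean in 34 of the 43 members, within the limit the rule set. The median log2 fold change of IMAT against SAT was -0.44. In the edgeR test 7 members had an unadjusted p under 0.05. The share of all genes tested at that threshold is not given, so nothing is read from the 7. Over all genes tested the SAT mean was the higher in 53.3%, over the 20650 genes within the same 2-fold limit it was the higher in 55.9%, and the median over all genes tested was -0.05. Those genes were not matched to the members in level, and 13 members had an IMAT library without counts. The same edgeR test called 1 member different between IMAT and SAT, where 10.6% of all genes tested were called. The rule bounded this contrast, so the count says nothing about the members. For 35 of the 43 the approximate 95% interval of the difference reached past 2-fold, so the members were chosen for close means, and close levels in the 2 depots were not shown one by one.

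ENSOMYG00000043529, the member called between IMAT and SAT and named after its values had been seen, had graded levels. It had 57.1, 51.7, 43.7, 48.7 and 53.0 CPM in VAT replicates 1 to 5, then 29.0, 20.7, 25.6, 20.6 and 19.0 CPM in SAT replicates 1 to 5. Its IMAT levels were 12.0, 7.66, 13.97, 22.2 and 10.5 CPM in replicates 1 to 5, so IMAT replicate 4 overlapped the SAT libraries while the others lay below them. The log2 fold change of IMAT against SAT was -0.79 (SE 0.247). The call was lost in 14 of 22 alternatives: at equal depth, in a fit of only those depots, and without any 1 of VAT replicates 1 to 4, SAT replicates 1 to 4 or IMAT replicates 1, 2, 3 and 5. It sat at the edge of the set, with a margin of 1.505. In the other direction ENSOMYG00000032147 had the highest IMAT level relative to SAT among the members. Its levels were 0.597 to 3.45 CPM in SAT with a median of 3.09 CPM, 2.61 to 6.70 CPM in IMAT with a median of 4.396 CPM, and 13.6 to 70.8 CPM in VAT with a median of 53.6 CPM. The SAT and IMAT libraries overlapped, and the log2 fold change of IMAT against SAT was 0.78 (SE 0.478).

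The 5 VAT libraries did not carry the members equally. VAT replicate 5 had the lowest level of 33 members (76.7%), whereas it was the lowest for 39.1% of all genes that reached 10 CPM in VAT. Its median log2 deviation from the VAT mean of each gene was -0.67 over the members and -0.05 over those genes. The median deviations of VAT replicates 1 to 4 over the members lay between 0.01 and 0.20. The median CPM of the 43 members was 41.7, 49.9, 41.5, 40.2 and 21.4 in VAT replicates 1 to 5. VAT replicate 5 was also the deepest library and had the most detected genes of the depot, 43239 against 37150 to 41316, and whether this had a part in the lower levels was not tested. In SAT and IMAT the median deviations of the members stayed between -0.13 and 0.16 in every library.

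**Figure D3:**
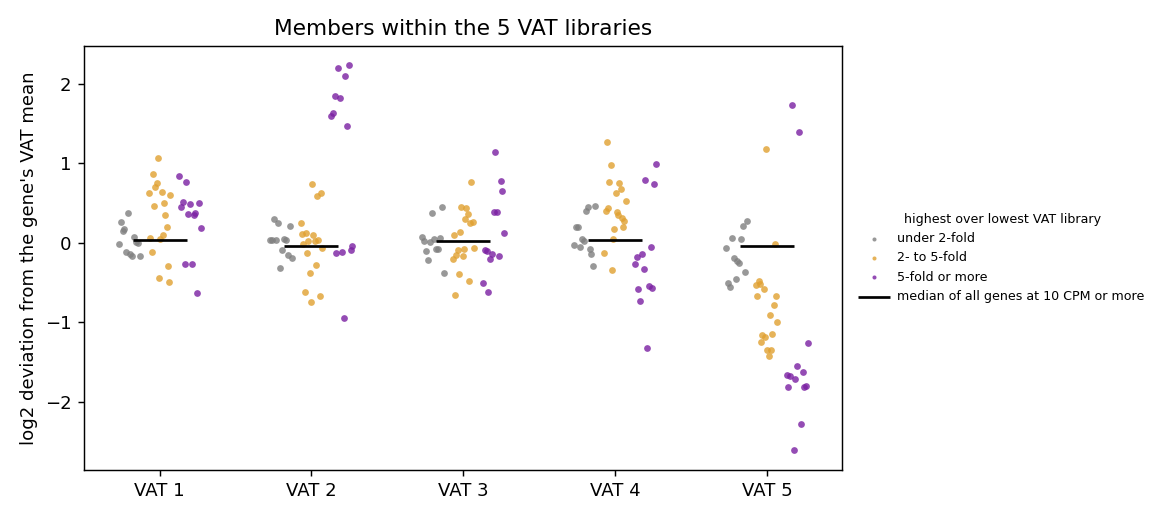
Log2 deviation of each member in each VAT library from its own VAT mean, with colours for the ratio of the highest to the lowest VAT library and a black bar at the median of all genes that reached 10 CPM in VAT. Of the 13 members that vary 5-fold or more, 8 are highest in VAT replicate 2 and 11 are lowest in VAT replicate 5. The matching shares over all genes that vary so widely are not given. Members that vary under 2-fold stay near 0.

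The members ranged from steady to highly variable within VAT. The ratio of the highest to the lowest VAT library had a median of 3.68 over the members and of 1.94 over all genes that reached 10 CPM in VAT. Without VAT replicate 5 the medians were 1.85 and 1.49. The genes set beside the members were not matched to them in level or in fold over the other depots. In 12 members (27.9%) the ratio was under 2, against 52.6% of those genes, and in 13 members (30.2%) it was 5 or more, against 10.3%. This grouping by ratio was made after the values had been seen. The steady members were modestly higher in VAT, with median ratios of 3.19 to the SAT mean and 4.41 to the IMAT mean. For the 13 variable members the median ratios were 37.1 and 71.3. The fold over another depot and the range within VAT share the VAT values. The rule also holds the lowest VAT library over 1.5 times above all others, so a member with a wide range must have a large fold. The relation is therefore partly set by the choice.

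**Figure D4:**
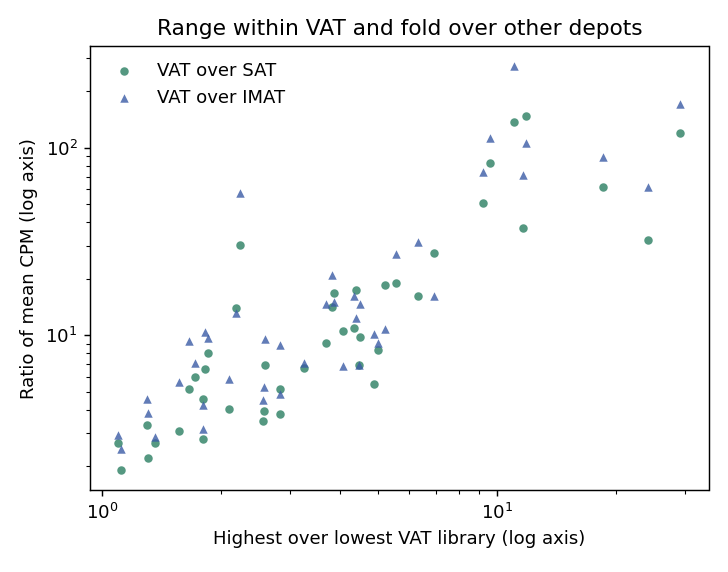
Ratio of the VAT mean to the SAT mean (circles) and to the IMAT mean (triangles) for each of the 43 members, against the ratio of its highest to its lowest VAT library, both on log axes. Members with the widest range within VAT lie at the top right, and the members that vary under 2-fold have ratios of at most 10.4. The rule itself requires a large ratio where the range within VAT is wide.

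The steadiest member, the ninth by mean VAT level, had 122.8, 127.0, 130.3, 122.3 and 118.6 CPM in VAT replicates 1 to 5. Its SAT libraries held 37.4 to 53.9 CPM and its IMAT libraries 30.5 to 53.5 CPM. All VAT libraries thus lay close together, and SAT and IMAT filled nearly the same band below. The most variable member, the eighth by mean VAT level, had 129.8, 351.0, 66.2, 69.0 and 12.0 CPM in VAT replicates 1 to 5, a 29.2-fold range. It had at most 2.69 CPM in any SAT library and 2.39 CPM in any IMAT library, so even its lowest VAT library lay above them.

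Some members had the same VAT libraries at both ends, a pattern picked after the values had been seen. VAT replicate 2 was highest and VAT replicate 5 lowest in 12 members (27.9%), against 5.55% of all genes that reached 10 CPM in VAT. Taken singly, VAT replicate 5 was lowest in 76.7% of members, against 39.1% of those genes. VAT replicate 2 was highest in 27.9% of members, against 10.1%. The joint share therefore partly restates the low levels in VAT replicate 5. Of the 13 variable members 8 had this pattern. The share among all genes with a range of 5-fold or more is not given, so nothing is read from the 8. Over the 12 the ratio of VAT replicate 2 to VAT replicate 5 ran from 1.36 to 29.2 with a median of 10.3. The 8 variable ones had no more than 10.2 CPM in any SAT or IMAT library. One of them, the third by mean VAT level, had 640.3, 1073, 251.4, 294.7 and 111.7 CPM in VAT replicates 1 to 5. With 5 libraries in a depot, no correlation between members was computed.

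In 4 members (9.3%) VAT replicate 5 was instead the highest VAT library, against 34.9% of all genes that reached 10 CPM in VAT. The strongest of these, the seventh by mean VAT level, had 120.5, 132.5, 93.8, 87.2 and 484.0 CPM in VAT replicates 1 to 5. The first 4 libraries were close together and the last stood far above them. It had 5.82 to 11.9 CPM in SAT and 2.80 to 9.77 CPM in IMAT, without overlap with VAT. Low levels in VAT replicate 5 were thus common among the members but not general.

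The choice was repeated with each library left out in turn, and the left-out library, which had no part in that choice, was then set against the genes chosen from the other 14. In these genes the other libraries had been chosen to lie over 1.5-fold apart between VAT and the rest. The genes given for comparison had not been chosen so. High shares are therefore partly built in, and the shares are given as descriptions. Of the genes chosen without VAT replicate 1, 2, 3 or 4, the left-out library lay above all SAT and IMAT libraries in 42 of 42, 42 of 42, 47 of 47 and 45 of 46. Over all genes that reached 10 CPM in VAT the shares were 16.5%, 11.4%, 14.3% and 17.2%. Without VAT replicate 5 the rule gave 111 genes, of which 38 were among the 43. VAT replicate 5 lay above all SAT and IMAT libraries in 69 of the 111 (62.2%), against 26.9% of all genes that reached 10 CPM in VAT, and within their range or below in 42. It met the 1.5-fold margin of the rule in 40 of the 111 (36.0%), whereas VAT replicates 1 to 4 met it in 41 of 42, 42 of 42, 44 of 47 and 41 of 46 of the genes chosen without them. For a left-out SAT or IMAT library, the value lay below all VAT libraries in 96.1% to 100% of the genes chosen without it, against 24.3% to 45.2% of all genes that reached 10 CPM in VAT, and met the margin in 79.6% to 100%. Of the 43 members, 23 were found whichever single library was left out.

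**Figure D5:**
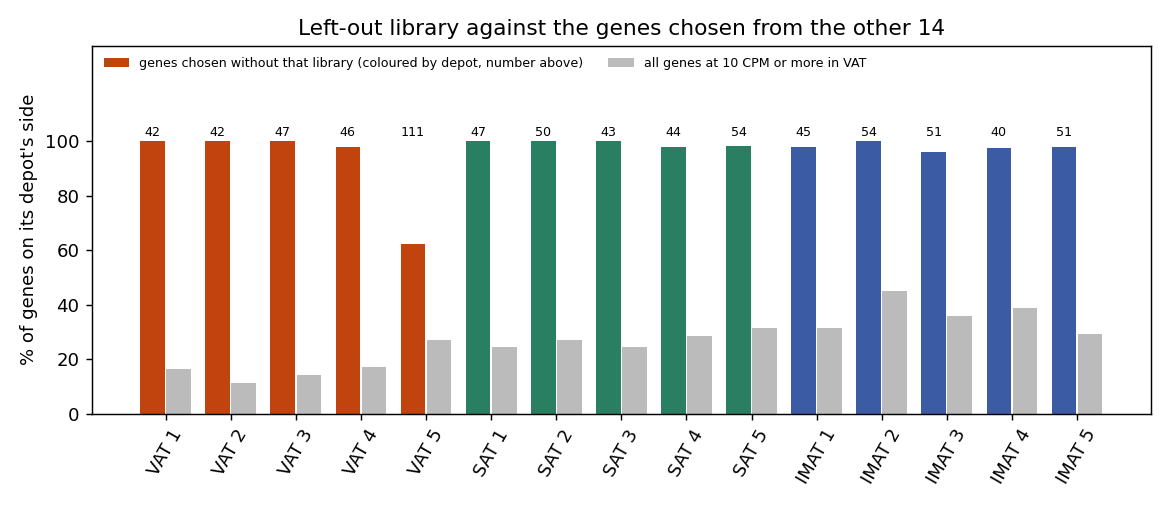
Percent of the genes chosen from the other 14 libraries for which the left-out library lay on the side of its own depot (coloured bars, with the number of genes chosen above each), and the same percent over all genes that reached 10 CPM in VAT (grey bars). For VAT libraries the side is above all SAT and IMAT libraries, for the others it is below all VAT libraries; only VAT replicate 5 falls clearly short, at 62.2% of 111 genes.

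The genes found by the same rule for intramuscular fat had a similar median range within their own depot when all libraries were counted. For the 236 genes high in IMAT alone the median ratio of the highest to the lowest IMAT library was 3.97 and the median IMAT level was 38.4 CPM, beside 3.68 and 37.4 CPM for the 43 members in VAT. Over VAT replicates 1 to 4 alone the median ratio of the members was 1.85. That value leaves out the VAT library most often lowest in the members, which by itself makes the ratio smaller. No IMAT library was left out, so 1.85 cannot be compared with 3.97. The IMAT libraries were also shallower, with 2413951 to 4199494 counts against 5872244 to 9414223 in VAT, and the part of depth was not tested. No test was made of these medians, since both sets were chosen by their levels. For IMAT no median ratio over all genes is given. How the 236 genes compare with the other genes of that depot is therefore not shown.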

How the data were processed

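The authors deposited whole-number counts for each gene in 15 libraries, 5 per depot. Tools named in the submitters' processing notes are Trimmomatic 0.30, STAR 2.5.2b, featureCounts of Subread 1.5.2 and DESeq2 1.6.3. Not given in the sources used here are the build, the annotation, the strand setting and the handling of multi-mapping reads. Trout has many similar gene copies, so a count of a gene with a near-identical copy, or of an overlapping or antisense gene, is uncertain.

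Genes were kept by filterByExpr of edgeR 4.0.16 in R 4.3.3 (minimum count 10, minimum total 15), which left 99.0% of counts. CPM values were scaled by TMM. The quasi-likelihood test was fitted to the 15 libraries together with a term for depot, with Benjamini-Hochberg adjustment over all genes tested and a threshold of 0.05. SE is the size of a log2 fold change divided by the square root of F, a rough guide, and intervals are the change plus or minus 1.96 SE. Log2 deviations used CPM plus 0.5. The test and the rule were checked on simulated counts. The lowest chi-square per degree of freedom between libraries of a depot was 6.37 over 30 pairs, so all pairs differed by more than counting error. Each library therefore counted once. Whether libraries came from separate fish cannot be told from this value.

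The members and lists were chosen with earlier results of these data known. The names given follow this rule: the member with the highest mean VAT CPM, the one with the widest margin, and the first in each direction of IMAT against SAT; 2 further genes were added after their values were seen. Cell type marker lists could not be matched to identifiers and were not used. Alternatives were DESeq2 1.42.0, its size factors, no filter, equal depth, other thresholds, a replicate block, fits of 2 depots and libraries left out.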

Additional observations from a re-analysis of the deposited data

Results flagged for a closer look

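Among 24 groups of 5 libraries examined, made up of shares and median levels of the members and of CPM of the named genes, 2 had a value set apart from the other 4 by more than 0.71 of the whole range. Chance would flag about 5% of independent, normally distributed groups, here 1.2. These groups share libraries and genes, and 2 of the named genes were added after their values were seen. The 1.2 is therefore a rough guide only. The members took 0.0951% of the counts in SAT replicate 5, above the 0.0625% to 0.0717% of the other SAT libraries. ENSOMYG00000061122 took 0.0367% there against 0.0155% to 0.0184%, while the remaining members together took 0.0583% against 0.0447% to 0.0562%. ENSOMYG00000017827 had 1.44 CPM in IMAT replicate 2, below the 8.68 to 11.6 CPM of the other IMAT libraries.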

How the results depend on the processing

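The number of members depended on the rule and on 1 library. It was 40 to 111 with a library left out, the highest without VAT replicate 5 and at most 54 without any other. It was 25 with a margin of 2, 199 with a margin of 1, 28 with SAT and IMAT within 1.5-fold and 120 without that limit. At equal depth it was 44, of which 30 were among the 43, and with DESeq2 size factors 43, of which 40 were. The count of members called between IMAT and SAT was 0 to 2 with a library left out, 2 without VAT replicate 5 and SAT replicates 4 and 5 together, 0 in a fit of only those depots and 3 with DESeq2, against 1. At equal depth it was 1, a different gene. The count over all genes for that comparison, 2716, was 1962 to 3515 with a library left out and 4351 without the 3 libraries together. It was 2573 in a fit of only those depots, 3963 with DESeq2 and 2317 at equal depth. ENSOMYG00000017827 was called in VAT against SAT without IMAT replicate 2, in a fit of only those depots and with DESeq2. The rule had used this contrast, so these calls are descriptions only. In VAT against SAT 42 or 43 members were called and in VAT against IMAT 43, under each of 22 alternatives. Over all genes the counts in either direction ran from 1589 to 2907 and from 3998 to 6660. The members had been chosen by these contrasts, so their steady counts follow from the rule.

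Samples with the same replicate number correlated from -0.13 to 0.53 in their deviations over all genes, above 0.1 in 9 of 15 pairs. The median was 0.13 over these pairs and -0.045 over 60 pairs with other numbers, and 7 of 15 libraries correlated best with their own number. These values do not settle whether the numbers mark shared fish. The labels do not say so, and the main test therefore did not pair the samples. With the replicate number as a block, 2 members were called between IMAT and SAT and 2819 genes over the whole table.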
